A study of Rattus norvegicus with 2 samples.

Results

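Chaperones are proteins that bind unfolded chains and help them fold, and co-chaperones are the proteins that load, time or link them. J proteins (the DNAJ families) bring clients to HSP70 and trigger its ATP hydrolysis, and nucleotide exchange factors such as the HSP110 proteins and the BAG proteins then release the nucleotide so that the client can leave. STIP1, also called HOP, holds HSP70 and HSP90 at the same time and passes clients from one to the other, while the ring-shaped CCT chaperonin encloses actin, tubulin and other proteins. Heat shock factor switches on many of these genes when proteins unfold, and both neurons and tumour cells depend on them. The values here count circular RNAs (circRNAs), loops in which a downstream splice site is joined back to an upstream one. Reads across such a joint, the back-splice junction, measure neither the linear mRNA of the host gene nor its protein.

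The circRNAs were chosen by the name of their host gene. A circRNA belonged if the table gave 1 host gene whose symbol began with DNAJA, DNAJB, DNAJC, HSP, CCT and a digit, or BAG and a digit, or was STIP1. This gave 100 circRNAs of 36 host genes, out of 17258 circRNAs in all and 4991 host genes named alone. HSPG2, which encodes the basement membrane proteoglycan perlecan, matched by name only. It is described apart from the chaperones below but is counted in the totals over all members. HSPB11, matched among the small heat shock proteins, is better known as a subunit of intraflagellar transport. No sequences are shown because the sources used here held none that fit the positions in the table.

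The study compared rats with bone cancer pain and control rats. In the bone cancer pain group, Walker256 carcinoma cells (a line from a rat mammary tumour), passed through the peritoneal cavity of SD rats, were placed live in the marrow of the tibia. The control group had the same operation with Walker256 cells boiled for 20 minutes, so that both groups carried the surgery and the cell material. Each group had 3 animals, killed 21 days after surgery, and 1 library was made per group. The sources used here do not say whether RNA of the 3 animals was pooled, and give no age. The labels call the material cancer cells from ascites in one field and spinal cord cells of the injected rats in another. With 1 library per group there was no test between conditions, and each ratio below compares 2 libraries, bone cancer pain over control. Intervals are exact 95% intervals for counting error only.

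Junction reads came to 159941 for the control and 151685 for the bone cancer pain library. Of 45 marker genes for the cell types the material could hold, 7 had a circRNA. None of the 9 neuronal, 6 microglial or 5 muscle markers did. MBP of oligodendrocytes had 2 control and 3 bone cancer pain reads, and GJA1 of astrocytes had 0 and 4. Junction reads do not measure linear mRNA, so missing marker circRNAs cannot decide on the spinal cord label. Of 8 genes for carcinoma and dividing cells, 4 cell cycle genes had circRNAs, mainly CCNB1 (120 and 107 reads) and TOP2A (60 and 41). The other 4 had none, and for the same reason these markers cannot decide on the cancer cell label. Of 6 fibroblast markers, the collagen COL3A1 had 24 and 59 reads and the other 5 had none; its part in the results below was not tested. Symbols and positions in the table were human in style. Of the 36 host genes, 34 had a rat gene of the same symbol in the assembly GRCr8, and 0 of these lay on the chromosome number that the table gives. Positions below are those of the table, whose genome build is not named. Fewer cells of a type and fewer circRNA molecules per cell cannot be told apart in such libraries.

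As a group, the chaperone circRNAs took the same share of both libraries. They had 1053 reads in the control, or 6584 reads per 1000000 (RPM; exact Poisson interval 6192 to 6994), and 994 in the bone cancer pain library, or 6553 RPM (6152 to 6973). The ratio was 0.995 (0.912 to 1.09). Leaving out the circRNA or the host gene with the most reads gave 0.992 and 0.996. The sum holds large members on both sides, with STIP1 higher and DNAJB6 lower. STIP1 was left out after its values were seen, which must lower the ratio of the rest. The sum without DNAJB6 was not computed. Without hsa_circ_0022631 of STIP1 the sums were 1037 and 834 reads and the ratio was 0.848 (0.773 to 0.930), and without all of STIP1 they were 1008 and 820 (0.858, 0.781 to 0.942). The J proteins together had 515 and 410 reads (0.839, 0.736 to 0.958), the HSP70 and HSP110 genes 121 and 65, and STIP1 45 and 174. The lower J protein sum came mainly from DNAJB6, with 124 and 48 reads. Intervals included 1 for DNAJA (1.09, 0.734 to 1.63), DNAJC (0.927, 0.783 to 1.1) and DNAJB without DNAJB6 (1.19, 0.757 to 1.86).

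Calls went by size: higher meant a ratio of at least 2 and lower a ratio of at most 0.5, after 0.5 reads were added to each library, and both needed 10 or more reads over the pair. Of 41 member circRNAs with 10 or more reads, 6 were higher (14.6%) and 6 lower (14.6%). Over all 5415 circRNAs with 10 or more reads, 17.3% were higher and 17.0% lower, so the shares among the members were near the background. Without HSPG2, 5 of 39 were higher and 6 lower. The counting interval lay above 1 as well for 4 of the 6 higher and below 1 for 4 of the 6 lower. That was 9.76% of the 41 each way, beside 10.7% and 10.2% of all circRNAs with 10 or more reads. The lower ones include an uncatalogued STIP1 junction with 18 control and 0 bone cancer pain reads. Its call was fixed once it passed the minimum, and it has no ratio. The median log2 ratio of the 41 was -0.16, beside 0.00 over all.

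Of 23 member host genes with 10 or more reads, 2 were higher (STIP1 and HSP90AB1) and 2 lower (DNAJB6 and HSPA4), while 19 lay between. These shares of 8.7% each compare with 13.3% higher and 14.2% lower among all 3037 host genes with 10 or more reads. HSP90AB1 had 0 control and 13 bone cancer pain reads. Its call was thus fixed once it passed the minimum, and it has no ratio. The median log2 ratio of host sums was 0.02 for the members and -0.03 over all. Among the 19 member host genes with 20 or more reads, the interval lay above 1 for STIP1 and below 1 for 5, DNAJB6, DNAJC3, HSPA4, HSPA9 and CCT2. Over the 2205 host genes with that many reads and a circRNA listed in both libraries, intervals lay above 1 for 14.3% and below 1 for 16.0%.

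**Figure D1:**
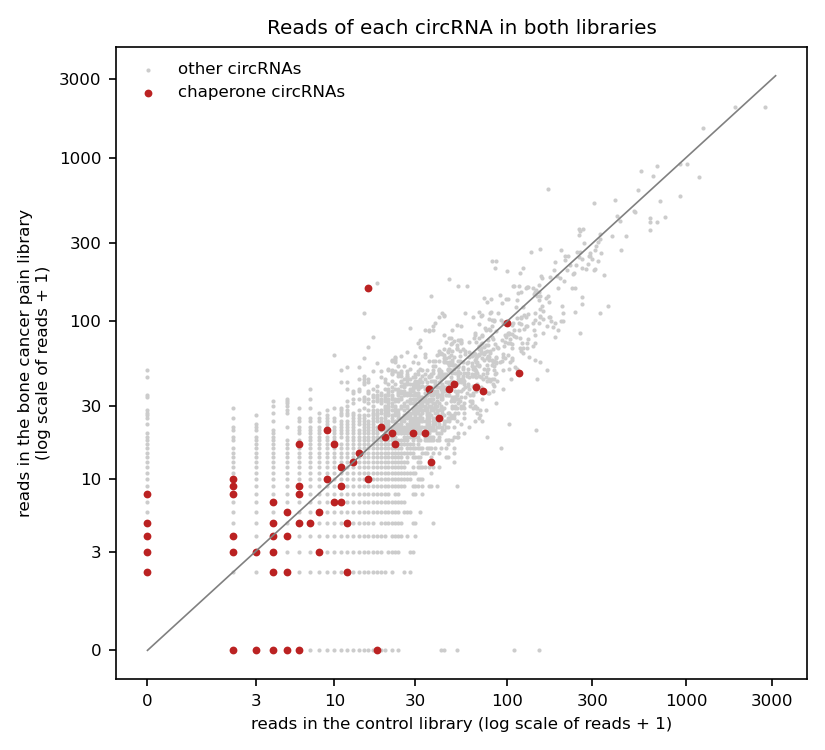
Reads of every circRNA in the control library (x axis) and the bone cancer pain library (y axis), both on a log scale of reads + 1, with chaperone circRNAs in red, all others in grey and a line at equal reads. CircRNAs with the same pair of reads share 1 point, and the 49 members listed in 1 library lie along an axis. The red point of hsa_circ_0022631 of STIP1 (16 and 160 reads) lies far above the line, beside a few grey points.

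**Figure D2:**
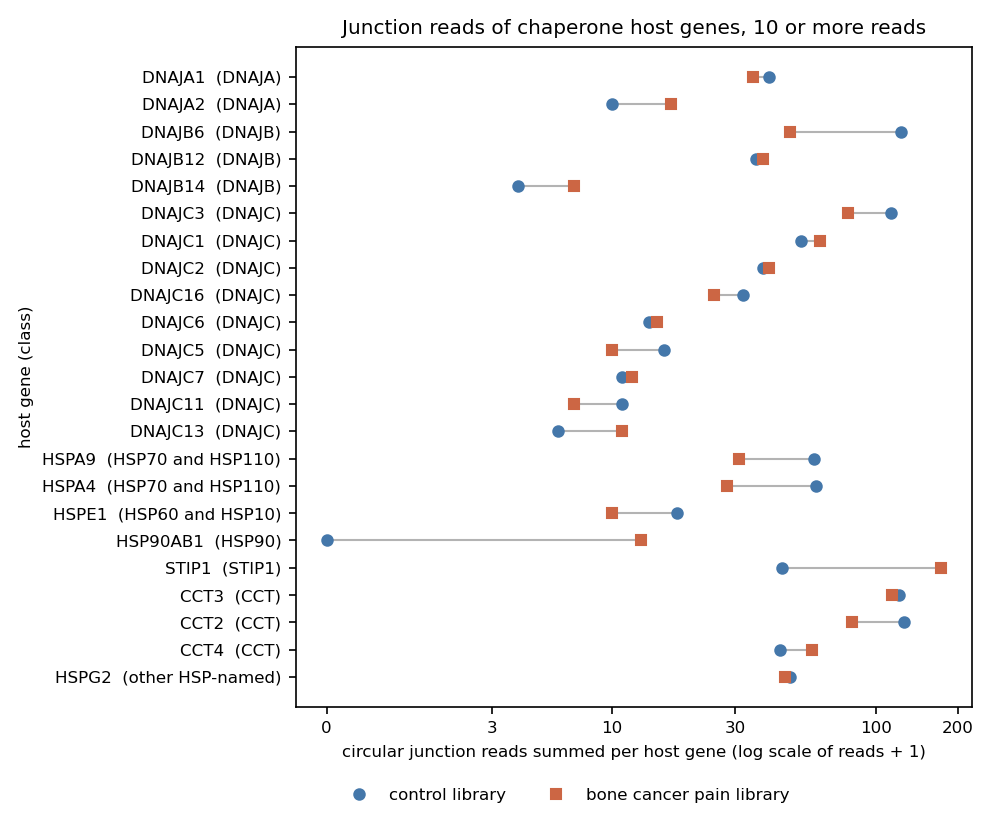
Junction reads summed per host gene in the control library (circles) and the bone cancer pain library (squares), on a log scale of reads + 1, for the 23 host genes with 10 or more reads. STIP1 moves from 45 to 174 reads, and DNAJB6 from 124 to 48.

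**Figure D3:**
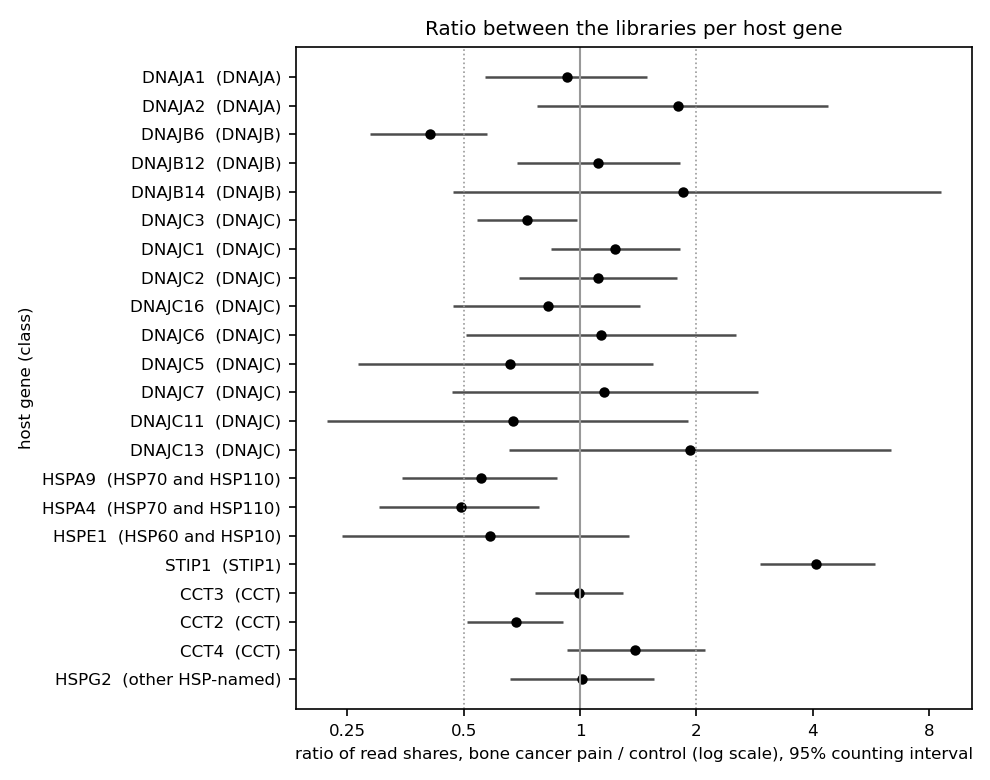
Ratio of read shares, bone cancer pain over control, on a log scale with 95% counting intervals, for the 22 host genes that have a circRNA listed in both libraries and 10 or more reads; dotted lines mark ratios of 0.5 and 2. Intervals of 16 host genes include 1.

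STIP1 had the largest ratio among member host genes with 20 or more reads. Its 5 circRNAs summed to 45 reads in the control and 174 in the other library, a ratio of 4.08 (2.92 to 5.79), which put it at place 117 from the top among 3037 host genes. All of the excess lay on 1 junction. The circRNA hsa_circ_0022631 (chromosome 11, 63960550 to 63965446) had 16 control reads (Poisson interval 9.15 to 26.0) and 160 bone cancer pain reads (136 to 187). This was 100 and 1055 RPM, a ratio of 10.5 (6.30 to 18.9). It was the 4th highest ratio among the 5110 circRNAs with 10 or more reads and listed in both libraries, and by reads the circRNA moved from place 1974 in the control to place 90.

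None of the other STIP1 junctions showed a like excess. An uncatalogued junction (63960550 to 63963285) that shares the start had 18 control reads and was not listed in the bone cancer pain library. It was the only member circRNA with 10 or more reads listed in 1 library. A second junction from the same start, hsa_circ_0022630 (63960550 to 63962092), had 5 and 2 reads. The uncatalogued junction from 63961661 to 63965446, which shares the end, had 6 and 9 reads (1.58, 0.503 to 5.4). The last, from 63964743 to 63965446, had 0 and 3. Without hsa_circ_0022631, STIP1 had 29 control and 14 bone cancer pain reads, a ratio of 0.509 (0.249 to 0.995), so the direction of the host sum turned.

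**Figure D4:**
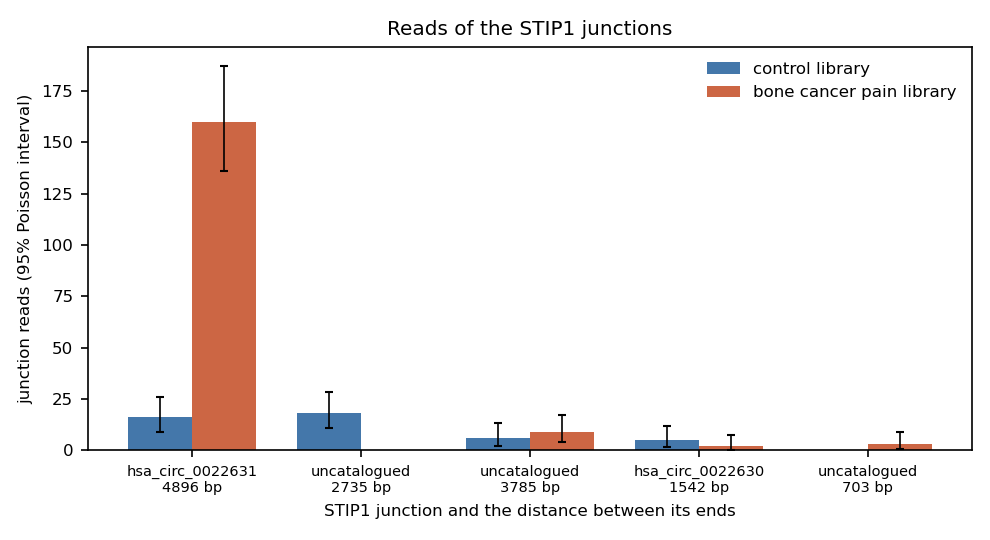
Reads of the 5 STIP1 junctions in the control (blue) and bone cancer pain (orange-red) libraries, with exact 95% Poisson intervals where reads were listed; each junction is named by its circBase identifier or as uncatalogued, with the distance between its ends. The first junction has 16 and 160 reads and the second 18 and 0.

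The HSP90 proteins, which receive clients from STIP1, had few junction reads. HSP90AB1, the constitutive cytosolic form, was unlisted in the control and had 13 reads in bone cancer pain. They lay on 2 uncatalogued junctions of chromosome 6 with a common end (44218037 to 44219995 with 8 reads and 44218095 to 44219995 with 5). HSP90B1, the form of the endoplasmic reticulum, had 2 reads, on a junction of 151 bp listed for the bone cancer pain library alone. HSP90AA1 was not among the host genes. The lowest value listed for any circRNA was 2 reads, so an unlisted circRNA could have had 1 read, and no fold is given for these.

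HSP70 and HSP110 host genes had fewer reads in the bone cancer pain library. The class summed to 121 control and 65 bone cancer pain reads over 13 circRNAs of 5 genes, a ratio of 0.566 (0.412 to 0.772). HSPA4, an HSP110 protein that exchanges nucleotide on HSP70, had 60 and 28 (0.492, 0.302 to 0.783). Its largest circRNA, an uncatalogued junction on chromosome 5 (132400672 to 132406188), had 37 and 13 (0.370, 0.181 to 0.713), and hsa_circ_0001531 (132426885 to 132428481) had 12 and 5 (0.439, 0.121 to 1.34). Both HSPA4 circRNAs with 10 or more reads were thus on the same side, although the interval of hsa_circ_0001531 includes 1. The smaller HSPA4 circRNAs had 5 and 4, 3 and 3, 3 and 0, and 0 and 3 reads, without a common direction. HSPA9, the mitochondrial HSP70 known as mortalin, had 59 and 31 (0.554, 0.347 to 0.870). Most of this was hsa_circ_0003280 (137904614 to 137906830) with 41 and 25 (0.643, 0.375 to 1.08), and hsa_circ_0006995 had 8 and 3 (0.395, 0.0676 to 1.65). The other 3 genes had 4 reads or fewer. HSPA14, a ribosome-associated HSP70, had 0 and 4, HSPA4L had 0 and 2, and HSPA12B, a distant relative, had 2 and 0. The main cytosolic HSP70 genes HSPA8, HSPA1A and HSPA1B were not among the host genes.

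The mitochondrial HSP60 and HSP10 pair was represented mainly by HSPE1, the lid of the HSP60 ring. It had 18 and 10 reads (0.586, 0.242 to 1.34), and HSPD1, which encodes HSP60 itself, had 2 and 0. The 2 HSPE1 circRNAs start at the same position of chromosome 2, 198367763, and span 291 and 207 bp. The longer, hsa_circ_0005445 (to 198368054), had 6 and 8 reads (1.41, 0.428 to 4.92). The shorter, uncatalogued one (to 198367970) had 12 and 2 (0.176, 0.0191 to 0.789). The lower HSPE1 sum therefore came from the shorter form.

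The DNAJB class differed through 1 gene. Together its 3 genes had 164 and 93 reads (0.598, 0.459 to 0.776). DNAJB6, a J protein that restrains aggregation of polyglutamine proteins, had 124 and 48 (0.408, 0.286 to 0.574). Of these, 116 and 48 were on hsa_circ_0083176 (chromosome 7, 157174940 to 157178305; 0.436, 0.305 to 0.616). An uncatalogued junction with the same end, from 157174530, had 5 and 0, and another from 157208710 to 157209211 had 3 and 0. All 3 DNAJB6 junctions had fewer reads in the bone cancer pain library. DNAJB12 and DNAJB14 are membrane J proteins of the endoplasmic reticulum that work in degradation of misfolded proteins. DNAJB12 had 36 and 38 reads on a single circRNA, hsa_circ_0008662, whose ends lie 381 bp apart (1.11, 0.687 to 1.81), and DNAJB14 had 4 and 7 (1.85, 0.469 to 8.60). Without DNAJB6 the class stood at 40 and 45 reads and a ratio of 1.19 (0.757 to 1.86), which is the opposite side of 1.

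The DNAJA class, the J proteins closest to bacterial DnaJ, had 52 and 54 reads (1.09, 0.734 to 1.63). DNAJA1, a cytosolic partner of HSP70, had 40 and 35 (0.923, 0.569 to 1.49), and its 3 junctions listed in both libraries gave ratios of 0.959, 0.738 and 0.791. The largest of them (chromosome 9, 33029883 to 33030665, uncatalogued) had 22 and 20 reads. DNAJA2, the other cytosolic member, had 10 and 17 reads on hsa_circ_0000696 (1.79, 0.775 to 4.38). The intervals of both genes include 1. DNAJA3, the mitochondrial member, had 2 reads in each library on different junctions. Without DNAJA1 the class ratio was 1.67.

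DNAJC was the class with the most host genes, 10, and 29 circRNAs. It summed to 299 control and 263 bone cancer pain reads (0.927, 0.783 to 1.1). With 10 or more reads, 0 of its 9 host genes passed 2-fold, beside 13.3% higher and 14.2% lower over all. The DNAJC genes of the endoplasmic reticulum come first. DNAJC3, also called P58IPK, restrains the stress kinase PERK and delivers clients to the HSP70 of that compartment. It had 114 and 79 reads (0.731, 0.541 to 0.982). On chromosome 13, its catalogued circRNA hsa_circ_0002473 (96375496 to 96377506) had 67 and 39 (0.614, 0.403 to 0.924), and an uncatalogued junction (96409898 to 96416207) had 47 and 38 (0.853, 0.541 to 1.34). Without DNAJC3 the class had 185 and 184 reads (1.05, 0.850 to 1.29).

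DNAJC1, a membrane J protein of the endoplasmic reticulum, had 53 and 62 reads (1.23, 0.841 to 1.81) on 6 junctions that reuse a few ends on chromosome 10. Its hsa_circ_0004306 (22193451 to 22209892) had 19 and 22 (1.22, 0.631 to 2.39). Its hsa_circ_0002618 (22171211 to 22209892) had 13 and 13. From the same start as the first, an uncatalogued junction reached to 22218070 and had 6 and 17 (2.99, 1.12 to 9.25). The other 2 junctions that end at 22218070 had 4 and 0 (from 22207708) and 2 and 0 (from 22171211). The end at 22218070 thus had 12 control and 17 bone cancer pain reads in all, spread over 3 starts in the control and on 1 in the bone cancer pain library. DNAJC16, another J protein of this compartment, had 32 and 25 (0.824, 0.468 to 1.43), of which 29 and 20 were on hsa_circ_0000018 (0.727, 0.390 to 1.33).

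The other DNAJC genes act at ribosomes, membranes and mitochondria. DNAJC2, which sits on the ribosome with HSPA14, had 38 and 40 reads (1.11, 0.694 to 1.78). Its hsa_circ_0081751 (chromosome 7, 102962379 to 102963241) had 23 and 17, and an uncatalogued junction from 102960203 to 102963079 had 0 and 8. DNAJC5, the cysteine string protein of synaptic and other secretory vesicles, had 16 and 10 (0.659, 0.267 to 1.54). DNAJC6, the neuronal auxilin that uncoats clathrin vesicles, had 14 and 15 (1.13, 0.508 to 2.53). Each of these vesicle genes had 1 circRNA, and both intervals include 1. DNAJC7, which also binds HSP90, had 11 and 12 (1.15, 0.465 to 2.88). The mitochondrial DNAJC11 had 11 and 7 (0.671, 0.221 to 1.90). The endosomal DNAJC13 had 6 and 11 (1.93, 0.655 to 6.37), with 2 and 9 on hsa_circ_0004091 (4.74, 0.982 to 45.1). DNAJC18 had 4 and 2 reads.

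The CCT chaperonin had 24 circRNAs of 7 genes and summed to 300 and 270 reads (0.949, 0.802 to 1.12). Its 3 genes with 10 or more reads did not move alike. CCT2, the beta subunit, had 127 and 82 (0.681, 0.509 to 0.906). CCT3, the gamma subunit, had the most reads over both libraries of any member host gene, with 122 and 115 (0.994, 0.764 to 1.29). CCT4, the delta subunit, had 44 and 58 (1.39, 0.923 to 2.11). Without CCT3, the host gene with the most reads, the class ratio was 0.918. Leaving out both CCT2 and CCT3, chosen after their values were seen, left 51 and 73 reads (1.51, 1.04 to 2.20). That rest includes CCT7 and CCT8, listed for the bone cancer pain library alone, so its interval does not speak for the class. Intervals of CCT2 and CCT4 do not overlap, while that of CCT3 overlaps both. Subunits CCT7 (0 and 9 reads over 3 junctions) and CCT8 (0 and 2) were listed for the bone cancer pain library alone. CCT6A had 7 and 2 reads on 4 junctions, none of them listed in both, and the pseudogene CCT6P1 had 0 and 2. Reads could be shared between these near-identical copies, so both are uncertain. The alpha subunit, TCP1, falls outside the name pattern and had 6 and 11 reads with no circRNA listed in both. CCT5 was not among the host genes.

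Within each large CCT gene, most reads used a small set of ends. For CCT2, on chromosome 12, hsa_circ_0002940 (69983265 to 69987393) had 73 and 37 reads (0.534, 0.350 to 0.804), and hsa_circ_0000418 (69983265 to 69985939), from the same start, had 50 and 41 (0.865, 0.558 to 1.33). The longer form led in the control and the shorter in the bone cancer pain library, although their shares overlap within counting error. For CCT3, on chromosome 1, hsa_circ_0004680 (156303338 to 156304709) had 100 and 97 (1.02, 0.765 to 1.37). The longer circRNAs with the same end, hsa_circ_0005131 and hsa_circ_0014717, had 11 and 9 and 7 and 5. For CCT4, on chromosome 2, an uncatalogued junction (62103230 to 62110683) had 20 and 19 (1.00, 0.506 to 1.98). The adjacent hsa_circ_0054908 (62110594 to 62112207) had 9 and 21 (2.46, 1.08 to 6.10), and hsa_circ_0054903 (62099217 to 62110683) had 2 and 8 (4.22, 0.842 to 40.8).

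Few BAG, small heat shock or other HSP names were present. BAG2, which binds HSP70 and restrains the ubiquitin ligase CHIP, had 2 and 4 reads on 1 junction (2.11, 0.302 to 23.3). HSPB11 had 2 and 0. HSPG2 had 48 and 46 reads (1.01, 0.659 to 1.55) on 9 junctions. Of the 9, 2 were listed in both libraries (22.2%, exact binomial interval 2.81 to 60). This interval includes the 42.0% listed in both over all circRNAs. On chromosome 1, hsa_circ_0010735 (22188250 to 22188608) had 34 and 20 (0.620, 0.338 to 1.11), and an uncatalogued junction (22178581 to 22179325) had 2 and 10 (5.27, 1.12 to 49.5). Without hsa_circ_0010735 the gene had 14 and 26 (1.96, 0.986 to 4.06).

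The junctions were then compared within host genes, which sets aside the level of the gene. In 15 member host genes with several circRNAs and 10 or more reads in each library, the same circRNA led both libraries in 11 (73.3%), beside 78.8% of 1704 such host genes. The share of the leading circRNA moved by a median of 11.2 percentage points, beside 11.8 over all. STIP1 moved most. Its hsa_circ_0022631 took 35.6% (exact binomial interval 21.9 to 51.2) in the control and 92.0% (86.9 to 95.5) in bone cancer pain, a move of 56.4 points that ranked 39th among the 1704. In HSPE1, hsa_circ_0005445 took 33.3% (13.3 to 59.0) and 80.0% (44.4 to 97.5). In HSPG2, hsa_circ_0010735 took 70.8% (55.9 to 83.0) and 43.5% (28.9 to 58.9). Of the 15, the intervals of the shares were apart in STIP1 only. In DNAJB6, hsa_circ_0083176 took 93.5% (87.7 to 97.2) and 100% (92.6 to 100), so its lower sum came with nearly the same makeup.

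**Figure D5:**
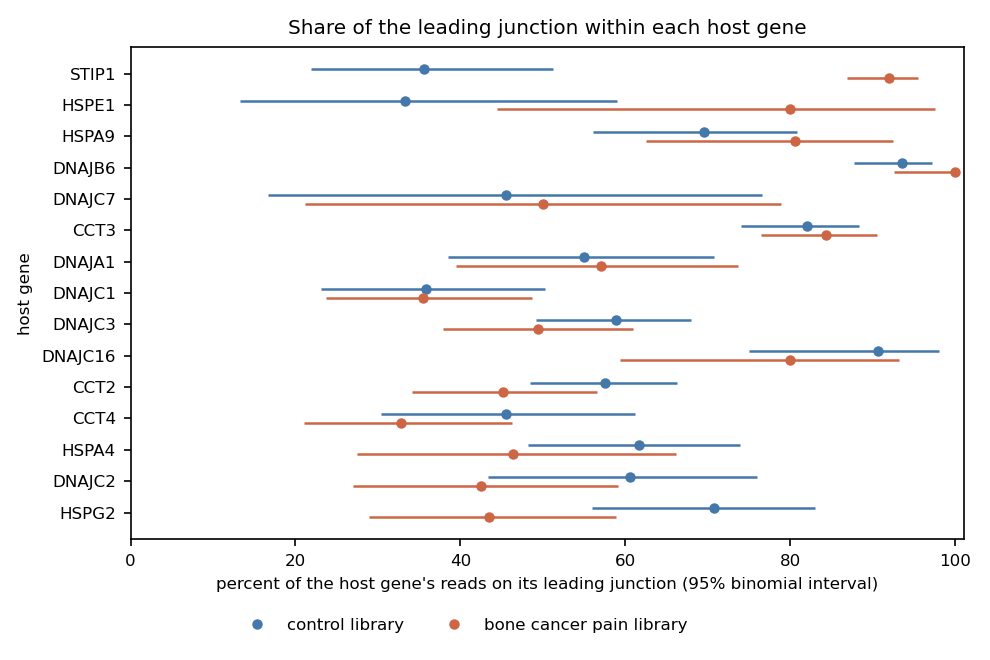
Percent of each host gene's junction reads on its leading circRNA in the control (blue) and bone cancer pain (orange-red) libraries, with exact 95% binomial intervals, for the 15 host genes with several circRNAs and 10 or more reads in each library. STIP1 goes from 35.6% to 92.0% and CCT3 from 82.0% to 84.3%; in HSPE1 both circRNAs have 14 reads over both libraries, and hsa_circ_0005445 is drawn.

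Several features not used in the choice can be set beside the whole table. Of the 100 circRNAs, 51 (51.0%, exact binomial interval 40.8 to 61.1) were listed in both libraries, beside 42.0% of all circRNAs, while 24 were listed for the control alone and 25 for the bone cancer pain library alone. Among the 41 with 10 or more reads, 40 were listed in both, beside 94.4% of all circRNAs with that many reads. Those listed in 1 library, 49 in all, were small: their median was 3 reads, and they made up 7.98% and 8.35% of member reads in the control and bone cancer pain. A circBase identifier, which marks a circRNA as catalogued, was given for 55 (55.0%, 44.7 to 65.0), beside 54.0% of all. The catalogued ones took 76.1% of the members' control reads and 77.8% of their bone cancer pain reads, and 36 of the 55 were listed in both libraries, against 15 of the 45 uncatalogued ones (65.5% and 33.3%). The same split in the whole table was 57.0% and 24.3%.

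The ends of chaperone circRNAs lay closer together than those of all circRNAs with 1 host gene. The median distance was 2577 bp (quartiles 1353 and 4920), beside 5803 bp (1808 and 14984) over those 15105. No test was made of this difference, and gene lengths were not used here. Distances ran from 151 bp in HSP90B1 to 46859 bp in DNAJC1. Class medians were 291 bp for HSPE1 with HSPD1 (3 circRNAs), 782 bp for DNAJA (7) and 2848 bp for DNAJC (29). They were longer for CCT (3349.5 bp, 24 circRNAs), DNAJB (3365 bp, 5) and HSP70 and HSP110 (3747 bp, 13). Of the 100 circRNAs, 59 (59.0%, 48.7 to 68.7) shared an exact start or end with another circRNA of the same gene, beside 61.7% of all with 1 host gene. The members had 2.78 circRNAs per host gene, beside 3.03 over all. There were 16 host genes with a single circRNA and 20 with several, up to 9 in HSPG2.

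Genes around the chaperones were read from a separate list of 113 symbols, older names included, of which 55 had a circRNA. Among the 39 that had 10 or more reads there were 4 higher and 6 lower ones, beside 13.3% and 14.2% of all host genes, and the median log2 ratio was -0.12. Together they had 1849 and 1804 reads (1.03, 0.964 to 1.1). Among the HSP90 co-chaperones and related proteins, 1 of 13 was higher and 2 lower, and the sum was 558 and 692 reads (1.31, 1.17 to 1.46). Of these, 156 and 284 were on NUDC, a dynein-linked HSP90 co-chaperone (1.92, 1.57 to 2.35). The median log2 ratio of the 13 genes was 0.08, and the sum without NUDC was not computed. AHSA1, which activates the ATPase of HSP90, had 6 and 23 (4.04, 1.60 to 12.1). The lower ones were PTGES3, the HSP90 co-chaperone p23, with 16 and 3 (0.198, 0.0369 to 0.691), and SGTA, a co-chaperone of tail-anchored proteins, with 11 and 0. The call of SGTA was fixed once it passed the minimum, and it has no ratio. In the endoplasmic reticulum folding list, 2 of 13 were higher and 2 lower, with 611 and 507 reads (0.875, 0.776 to 0.986). There, ERO1L had 3 and 16 (5.62, 1.61 to 30.1), and SEC61A1 of the translocon had 6 and 14 (2.46, 0.888 to 7.81). Lower were the disulfide isomerase PDIA5 with 33 and 14 (0.447, 0.221 to 0.859) and PDIA6 with 7 and 3 (0.452, 0.0754 to 1.98).

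The intervals of the next 3 lists include 1. Their few calls stand beside 13.3% higher and 14.2% lower among all host genes with 10 or more reads. Chaperonin and prefoldin partners had 377 and 354 reads (0.990, 0.854 to 1.15), with 0 of 4 higher and 1 lower. The lower one was PFDN2, a prefoldin subunit that hands clients to CCT, with 27 and 11 (0.430, 0.192 to 0.895). Mitochondrial proteases and disaggregases had 219 and 178 (0.857, 0.699 to 1.05), with 1 of 6 higher and 0 lower. NPLOC4, a cofactor of the segregase VCP, had 84 and 46 there (0.577, 0.394 to 0.837). Nucleotide exchange and stress sensing genes had 84 and 73 (0.916, 0.660 to 1.27), with 0 of 3 higher and 1 lower. The crystallins and ODF1, relatives of the small heat shock proteins, had no circRNA.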

How the data were processed

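Per the labels' protocols, ribosomal RNA was removed from both groups' RNA, and linear RNA was digested by 16 units of RNase R (15 minutes, 37 °C). The submitters' processing notes name CASAVA 1.8, BWA and rn6, with no role for any. Which circRNA caller was run, and with what read minimum, is not given in the sources used here.

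Made by the authors, the deposited table holds 1 value per circRNA and library, headed TPM. The deposited values were treated as RPM (reads per 1000000 junction reads): above the placeholder of 0.001, 100% were whole multiples of 1 step per library (tolerance 0.001 reads). Multiplying out gave 159941 and 151685 reads. The placeholder was taken as 0 reads.

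Ratios are of read shares, with exact conditional binomial (Clopper-Pearson) intervals. No ratio is given where no circRNA is listed in both libraries. PCR copies were not told apart, so intervals cover counting error only. Log2 ratios had 0.5 reads added. With 1 library per group no test was run. Host sums used rows with 1 host name, leaving out small RNA names and names turned into dates. Rows on chromosome Y and of X inactivation genes were left out, the identifiers being human. The calls were checked on simulated data. The members and all lists were chosen with earlier results of these data known. Named were member host genes with 20 or more reads, the leading gene of each class, circRNAs with 30 or more reads and those with 10 or more in 1 library only, and of the list around them the 3 highest and 3 lowest with 20 or more reads; genes and circRNAs named beyond this were chosen after their values were seen. Software was scipy 1.17.1, numpy 2.4.6, matplotlib 3.10.9 and pandas 2.3.3 under Python 3.11.15.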

Additional observations from a re-analysis of the deposited data

How the results depend on the processing

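Of 118 recomputed values, 88 stayed near the reported one (a count within 1.5 times, a ratio within its counting interval, a median within 0.1), though 10 of these crossed a ratio of 1 or a log2 ratio of 0. No paired analysis was possible because there was 1 library per group. Counts followed the minimum of reads. The 6 higher circRNAs became 10 with a minimum of 5 reads, 3 with 20 and 31 with none, and the 6 lower became 10, 2 and 30. The 2 higher host genes became 1 with a minimum of 20 reads and 8 with none, and the 2 lower became 6 with none. At a ratio of 1.5, there were 10 lower circRNAs, 5 higher and 4 lower host genes. Shares over all circRNAs and host genes were not computed at these other minimums or at a ratio of 1.5. Whether the members differed from the background there cannot be said. With 2 reads added, 1 host gene was lower, without HSPA4, whose ratio is 0.492. With catalogued circRNAs only, 3 circRNAs and 1 host gene were lower, the median log2 ratio was -0.09, the STIP1 ratio was 8.13, 65.5% were listed in both libraries, and the HSP60 and HSP10 ratio went from 0.527 to 1.05. Over single circRNAs the median was -0.16, and of those with 10 or more reads 97.6% were listed in both. With junctions listed in both libraries only, the STIP1 ratio was 6.68.

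Leaving out the leading circRNA gave 0.509 for STIP1, 0.989 for DNAJB, 0.151 for HSP60 and HSP10 and 1.96 for HSPG2, and leaving out the leading host gene gave 1.19 for DNAJB and 1.67 for DNAJA. Chosen after seeing the data, leaving out hsa_circ_0022631 gave 0.848 over all members and 1 higher host gene, leaving out STIP1 gave 0.858, and leaving out HSPG2 moved no call count by over 1.5 times. Leaving out CCT2 and CCT3, also chosen after seeing the data, gave 1.51 for CCT. The causes were not tested. Median of ratios scaling shifted log2 ratios by 0.076 and trimmed mean (TMM) scaling by 0.013, without changing any call count by over 1.5 times. Depth limits single circRNAs: hsa_circ_0054903 of CCT4, with 10 reads over both libraries, has a ratio of 4.22 and an interval from 0.842 to 40.8.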

Other observations

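In all, 5 rows that name a chaperone gene together with other names fell outside the choice of members. A junction naming HSPA5, the HSP70 of the endoplasmic reticulum also known as BiP, with 4 small RNA names (chromosome 9, 128002058 to 128002249) had 0 control and 2 bone cancer pain reads. One naming BAG3, a co-chaperone of selective autophagy, with 1 small RNA name (chromosome 10, 121412777 to 121412941) also had 0 and 2. One naming CCT3 with 10 small RNA names (chromosome 1, 156289936 to 156290816) had 2 and 0. The other 2 rows name MOB4 and the readthrough gene HSPE1-MOB4. Of these, hsa_circ_0057680 (chromosome 2, 198388348 to 198400354) had 16 and 33 reads (2.17, 1.16 to 4.23), and the other (198400254 to 198415110) had 2 and 3. These positions lie at higher coordinates than both HSPE1 circRNAs, which end at 198367970 and 198368054.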
